A study of Homo sapiens with 9 samples.

Results

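AHNAK and AHNAK2 are the paired genes of very large scaffold proteins, each encoded almost wholly by a single long last exon. Their Argonaute (Ago) peaks were taken from Ago-HITS-CLIP, in which ultraviolet light fixes Ago to its bound RNA, the complexes are immunoprecipitated and the bound fragments are sequenced. The cells were MDA-MB-231HM (231HM), a highly metastatic line of triple negative breast cancer, wild type by its labels and given no other agent. They received 20 nM of a miR-342-3p mimic, a miR-342-5p mimic or a negative control mimic for 48 h, with 3 libraries in each of the 3 groups. The authors deposited 2 lists of peaks, 1 for each miR-342 mimic over the same negative control mimic, so both lists share their controls. Each list merges its libraries, so depth per library is unknown and no error between replicates can be given for any value below.

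Members are the peaks whose midpoint lay on the strand of either gene within its body on hg19. There were 35 such peaks of 8460 in both lists. The miR-342-3p list held 25 of its 3450 peaks there, 16 in AHNAK and 9 in AHNAK2, and the miR-342-5p list held 10 of its 5010, 6 in AHNAK and 4 in AHNAK2. The genes were chosen by how many peaks they had, so these numbers are a description and carry no test. Of 20176 protein-coding genes, 11.8% had at least 1 miR-342-3p peak and 11.8% at least 1 miR-342-5p peak, with a median of 1 peak per gene with any. No protein-coding gene had more miR-342-3p peaks than AHNAK, and only 2 had more than AHNAK2. In the miR-342-5p list 107 genes had more peaks than AHNAK and 207 had more than AHNAK2.

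A miRNA guides Ago to RNA mainly through its seed, bases 2 to 8, which pairs with a complementary site that is most often studied in 3′UTRs. Ago is also found on coding exons, where ribosomes pass. AHNAK is known as a partner of the annexin A2 and S100A10 complex at the plasma membrane, and its protein, like that of AHNAK2, consists largely of tandem repeats. The mature miRNAs are shown with the seed in capitals, as RefSeq gives them, because every site below is read against these letters.
miR-342-3p: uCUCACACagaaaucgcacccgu
miR-342-5p: aGGGGUGCuaucugugauuga
A site was an 8mer (GUGUGAGA for miR-342-3p, GCACCCCA for miR-342-5p) or either of the 7mers within it (GUGUGAG or UGUGAGA, and GCACCCC or CACCCCA). A 6mer was the part that both 7mers share (UGUGAG and CACCCC). A peak had a site when these letters occurred, in the sense orientation, no more than 50 nt from its summit.

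The genome around the peaks is highly repetitive. AHNAK lies at chr11:62201014-62323707 on the minus strand of hg19 (ENSG00000124942.14_16), and exon 5 of its 5 exons, chr11:62283374-62301546, holds 17328 coding nt and an 845-nt 3′UTR. That exon encodes 98.1% of the 5890 residues. AHNAK2 lies at chr14:105403581-105444711, also on the minus strand (ENSG00000185567.7_8), and exon 7 of 7, chr14:105403590-105421136, holds 16734 coding nt and an 813-nt 3′UTR. It encodes 96.3% of the 5795 residues. These coding exons rank 3 and 5 in length among protein-coding genes, and no other annotated gene overlapped either gene body on the same strand.

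A profile search over the encoded protein found the repeat units. In AHNAK the period was 128 residues, with 53 units, of which 39 matched the unit consensus at 60% of residues or more and are called close. The other 14 are called diverged, and they lie at both ends of the repeat region. In AHNAK2 the period was 165 residues, with 24 close and 5 diverged units. AHNAK2 units were more alike, with a median identity of 88.8% to the consensus over close units against 78.0% in AHNAK. At the level of RNA, 51.0% of 50-nt windows of the AHNAK2 coding exon had another copy in the same exon with at most 2 mismatches, against 33.4% in AHNAK. Exact copies existed for 13.5% and 9.36% of windows. How reads that fit several copies were placed is not given in the sources used here beyond a quality filter on alignments, and its part in where peaks were called was not tested.

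Most peaks lay in the coding part of the long exon, which encodes nearly all of each protein. Over the whole lists, coding exons held 1899 of 3450 miR-342-3p peaks and 3485 of 5010 miR-342-5p peaks. Of the 16 miR-342-3p peaks of AHNAK, 15 were in the exon and 1, of score 18, lay in an intron at chr11:62312693-62312773. All 6 miR-342-5p peaks of AHNAK and all 9 miR-342-3p peaks of AHNAK2 were in coding sequence. The 4 miR-342-5p peaks of AHNAK2 were divided between 2 in coding sequence near its end and 2 in the 3′UTR. No peak of one list overlapped a peak of the other in either gene. How often peaks of the 2 lists overlap elsewhere was not counted, so this is not read as a trait of these genes. The closest summits of the 2 lists were 150 nt apart in AHNAK and 2847 nt apart in AHNAK2.

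**Figure D1:**
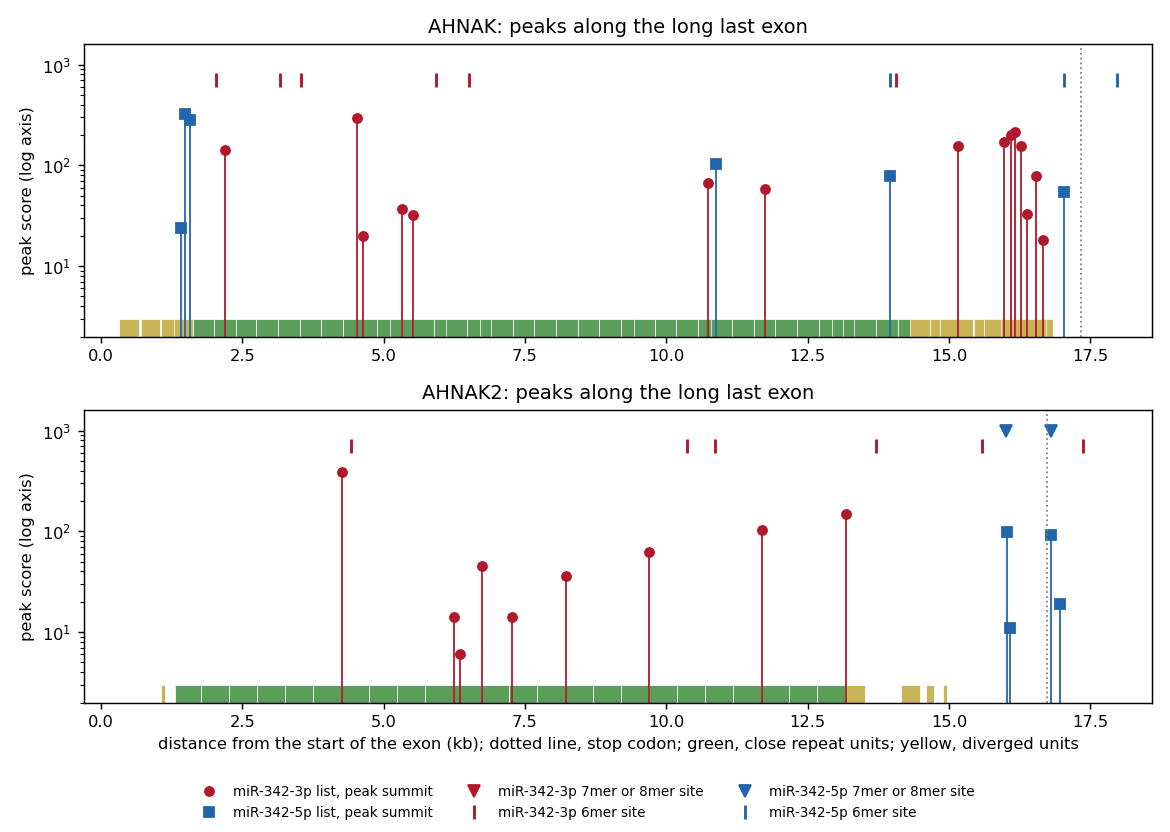
Peak summits along the long last exon of AHNAK (top) and AHNAK2 (bottom), by distance from the start of the exon in kb (horizontal) and deposited peak score on a log axis (vertical), with circles for the miR-342-3p list and squares for the miR-342-5p list. Bars at the base are close (green) and diverged (yellow) repeat units, the dotted line is the stop codon, and marks at the top are seed sites, none of which is a miR-342-3p 7mer or 8mer.

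Read from 5′ to 3′, the 15 exonic miR-342-3p peaks of AHNAK had scores of 141, 295, 20, 37, 32, 66, 58, 156, 169, 200, 215, 157, 33, 79 and 18. The authors describe the score as reads above background, and the lowest in either list is 5. The last 7 of these peaks formed a nearly unbroken run at chr11:62284856-62285609, with 1 to 12 nt between neighbours. This run covered 754 nt, or 4.35% of the coding part of the exon, and held 51.4% of the summed score of the gene's miR-342-3p peaks. The gap of 12 nt that defines it was set after the peaks were seen. With gaps of at most 5 nt the run held 6 peaks, with at most 2 nt it held 4, and with 50 or 100 nt it still held 7.

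The run fell in the diverged units near the C-terminus, with summits at residues 5439 to 5670. Diverged units make up 21.7% of the residues of the AHNAK exon and held 8 of the 15 miR-342-3p peaks, with a median score of 156.5. Close units make up 73.3% and held 7 peaks, with a median score of 58. Per kb of coding sequence this was 2.13 peaks in diverged units and 0.552 in close units. Of the 7 peaks in close units, 3 had a near-copy of their summit sequence elsewhere in the exon, and none of the 8 in diverged units had one. Neighbouring peaks of a run are not independent, and no test was made.

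The miR-342-5p peaks of AHNAK had scores of 24, 320, 279, 103, 78 and 54. The first 3 adjoined each other at chr11:62299892-62300149, in a diverged unit at the N-terminal end of the exon, and held 72.6% of the summed score of the gene's miR-342-5p peaks. High miR-342-3p scores occurred in both the 5′ and the 3′ part of the exon, with summits of score 141 and 295 at 2193 and 4522 nt from its start and the run described above near its end.

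In AHNAK2 the miR-342-3p scores were 385, 14, 6, 45, 14, 36, 63, 102 and 148 from 5′ to 3′. The first, at chr14:105416850-105416926, was the highest score of any peak in either gene. Of these 9 peaks, 8 lay in close units and 1 in diverged unit 26, and 5 of the 8 had a near-copy of the summit sequence elsewhere in the exon. The miR-342-5p scores were 99 and 11 in coding sequence and 93 and 19 in the 3′UTR, all outside the repeat units. The median score over both genes was 63 for miR-342-3p, against 24 over all peaks of that list, and 85.5 for miR-342-5p, against 19. Scores come from the contrast that chose the genes, so these medians are a description.

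None of the 25 miR-342-3p peaks had a miR-342-3p 7mer or 8mer site. The exact 95% confidence interval of that share runs from 0% to 13.7%, and it covers counting error only, since peaks of 1 gene are not independent. Over the whole miR-342-3p list 20.6% of peaks had such a site, and over its coding exon peaks 16.3%. No window held one on the opposite strand either. No exon of the principal transcript of AHNAK or AHNAK2 contained a miR-342-3p 7mer or 8mer. The 6mers of their exons, 6 in AHNAK and 6 in AHNAK2, had no miR-342-3p summit within 50 nt. Matches of 6 nt to other bases in or next to the seed did occur at some peaks and are given below. Introns did hold 7mer or 8mer sites, 25 in AHNAK and 3 in AHNAK2, and none of them had a peak.

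For miR-342-5p, the few exonic 7mer and 8mer sites had a peak, but the genes were chosen for their number of peaks. The share of such sites with a peak over all genes, in exons or in introns, was not counted for either miRNA. Only 2 miR-342-5p 7mer or 8mer sites lie in the exons of these genes, both in AHNAK2, and both had a miR-342-5p peak. The exons of AHNAK hold no 7mer or 8mer of miR-342-5p and 3 6mers. The 2 coding 6mers each had a peak, and the 6mer of the 3′UTR had none. Introns again held unoccupied sites, 14 in AHNAK and 4 in AHNAK2. The 4 occupied sites are shown on hg19, minus strand, with the site in capitals.
AHNAK 6mer, chr11:62287579-62287604: tggacatcaaCACCCCtgatgtggat
AHNAK 6mer, chr11:62284495-62284520: ctggaccttcCACCCCgacggggacg
AHNAK2 7mer, chr14:105405107-105405133: ccatacaagcCACCCCAggagtagact
AHNAK2 8mer in the 3′UTR, chr14:105404309-105404336: cacatatggaGCACCCCAtcccacagca
The centres of these sites lay 4.5, 8.5, 3 and 6.5 nt from the summits, whose scores were 78, 54, 99 and 93. The 3 highest miR-342-5p scores of AHNAK, 320, 279 and 103, were at peaks with no 6mer.

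A 7mer or 8mer of the transfected strand was thus present at 2 of 10 miR-342-5p peaks and 0 of 25 miR-342-3p peaks. The two-sided Fisher's exact test gave p = 0.0756, which did not pass 0.05. That test treats peaks as independent, although they come from 2 genes and 7 of the 25 miR-342-3p peaks form 1 run. Since the exons hold no miR-342-3p 7mer or 8mer, an exonic miR-342-3p peak could not have had one, so the p-value says nothing of how Ago chose among sites. In the whole miR-342-5p list the share was 33.2%, and among its coding exon peaks 27.4%. With 6mers counted, the numbers were 4 of 10 against 0 of 25, and the same exact test, with the same limits, gave p = 0.00401. With 6mers counted, 49.2% of all miR-342-5p peaks and 43.7% of those in coding exons had a site, so 4 of 10 is not above the usual share of that list. The miR-342-3p list had 23.8% and 20.0%, counted in the same way.

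Other forms of pairing were examined after the absence of seed sites had been seen, and they are given as descriptions. In all, 7 definitions of pairing were looked at, of which 3 were the seed site definitions and 4 were added. A seed match of 7 nt with exactly 1 G:U pair was near 2 of 25 miR-342-3p peaks, both in AHNAK, against 2.69% of all coding exon peaks of that list. Those 2 peaks, of score 37 and 32, lie in near-copies of the same repeat sequence, so they are not independent. Such a match was near 2 of 10 miR-342-5p peaks, against 13.9%. A contiguous complement of at least 6 nt to any bases of miR-342-3p was present at 8 of 15 exonic AHNAK peaks and 6 of 9 AHNAK2 peaks. At the AHNAK2 peaks these stretches lie in copies of the repeat unit, so those peaks are not independent. Tiles of 101 nt along the same exons held one in 22.2% and 19.2% of cases. For miR-342-5p these numbers were 2 of 6 peaks against 11.7% of tiles in AHNAK, and 3 of 4 against 23.8% in AHNAK2. Some of the miR-342-3p stretches paired with seed bases. They covered bases 3 to 8 at the AHNAK peaks of score 157 and 79 and at the AHNAK2 peak at chr14:105413855-105413936. At the AHNAK peaks of score 141 and 200 they covered bases 1 to 6. The other peaks with a stretch had it at other bases, and tiles were not counted by the bases paired.

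Sequences near the summits of the 3 highest miR-342-3p scores of AHNAK are shown because their matches differ. Capitals mark the longest complement to miR-342-3p within 50 nt of the summit. The summits, at chr11 positions 62297025, 62285371 and 62285445 in the order shown, lie outside the stretches printed. At the peak of score 295 the same letters, TGTGA, also occur at the summit.
AHNAK score 295, chr11:62297031-62297060: gtcctgaaattgaTGTGAaagcccctaaga
AHNAK score 215, chr11:62285321-62285350: cccaactgggcaGATTTCTGggcctgaaat
AHNAK score 200, chr11:62285466-62285495: ttggggccactgGTGAGAtcaaaggcccca
They pair with bases 3 to 7, 8 to 15 and 1 to 6 of miR-342-3p, with an overlap between the first and the third only.

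Predicted pairing was stronger at most peaks than along the exon. RNAduplex, which gives the lowest free energy of a duplex between 2 RNAs, was run on the 101 nt around each summit and on tiles every 10 nt. For miR-342-3p in AHNAK, the median was -15.7 kcal/mol over 15 peaks and -11.1 over tiles, with 13 of 15 peaks below the tile median. These 15 values are not independent, since 7 come from the run and some of its windows overlap. The AHNAK peaks of score 37 and 32 also had the same predicted duplex, at -19.4. In AHNAK2 the medians were -17.6 and -12.4, and all 9 peaks were below the tile median. Several of the AHNAK2 windows hold copies of the same repeat segment, so the 9 values are not independent. The AHNAK2 peaks of score 385 and 63 and both of score 14 had the same predicted duplex, at -17.6. For miR-342-5p the medians were -17.1 against -14.5 in AHNAK (5 of 6 peaks below) and -18.4 against -15.6 in AHNAK2 (3 of 4 below). The same windows paired with the miRNA that was not transfected gave -14 and -14.7 at the miR-342-3p peaks of AHNAK and AHNAK2, where tiles with that miRNA gave -14.5 and -15.6. Those of the miR-342-5p peaks gave -9 and -8.5, where tiles gave -11.1 and -12.4. Energy depends on base composition. The median GC content was 48.5% at miR-342-3p peaks of AHNAK against 49.5% over tiles, but 65.3% against 60.4% in AHNAK2, and the part of GC content in the AHNAK2 values was not tested.

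**Figure D2:**
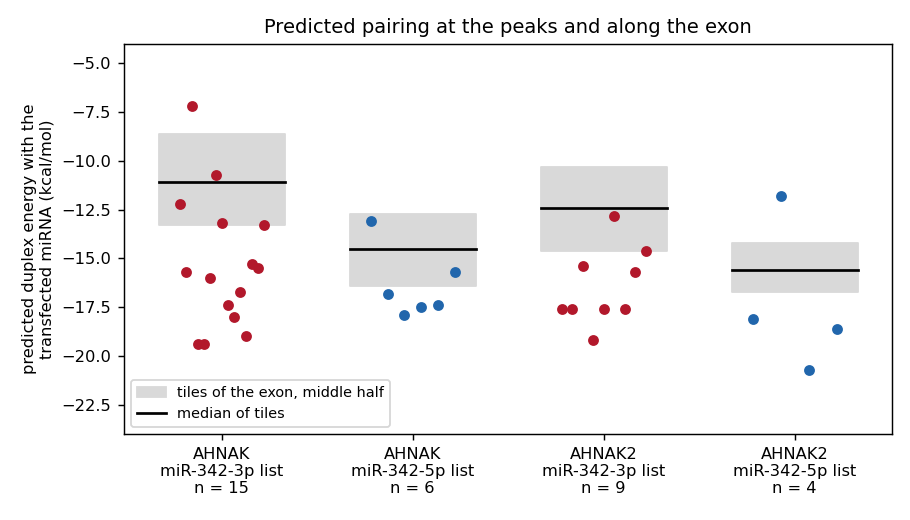
Predicted duplex energy (kcal/mol, vertical; lower is stronger) of the transfected miRNA with the 101 nt around each exonic summit (points), for each gene and list, beside the median (line) and the interquartile range (grey) of tiles along the same exon. In AHNAK2 all 9 miR-342-3p peaks lie below the tile median of -12.4, and several of them hold copies of the same repeat segment.

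In AHNAK2 the miR-342-3p peaks recurred at the same place in the repeat. Counted along the 165-residue unit, the 9 summits lay at positions 3, 5, 41, 6, 16, 6, 2, 7 and 6 from 5′ to 3′, so 7 of 9 fell within the first 10 positions, a window set after they were seen. The 15 summits in AHNAK units ranged from position 3 to 114 of 128, with 4 in the first 10 positions. The 9 peaks of AHNAK2 lay in 8 different units.

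**Figure D3:**
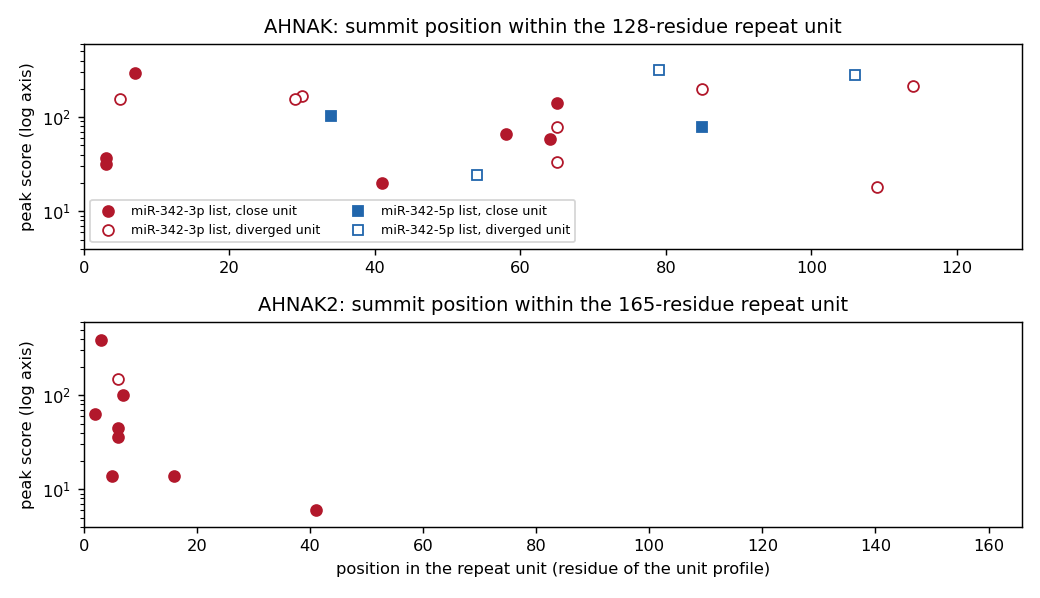
Position of each summit within the repeat unit (residue of the unit profile, horizontal) and peak score on a log axis (vertical), for AHNAK with a 128-residue unit and AHNAK2 with a 165-residue unit. Filled symbols are close units and open symbols diverged ones, and in AHNAK2 the miR-342-3p summits gather between positions 2 and 16 apart from 1 at position 41.

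The sequence at that position is shown for the 7 units with a summit within 25 nt of it, followed by 3 units without one. All are on chr14 of hg19, minus strand. Capitals mark GGTGCG, the complement of bases 15 to 20 of miR-342-3p, a word picked after these sequences had been read.
unit 8, score 385, chr14:105416860-105416889: aaagctggatGGTGCGcagctggaggggga
unit 12, score 14, chr14:105414880-105414909: caagctggatGGTGCGcggctggaggggga
unit 13, score 45, chr14:105414385-105414414: caagctggatGGTGCGtggctggaggggga
unit 16, score 36, chr14:105412900-105412929: aaagctggatggtgcacggctggagggtga
unit 19, score 63, chr14:105411415-105411444: caagctggatGGTGCGcggctggaggggga
unit 23, score 102, chr14:105409435-105409464: aaagctggatggtgtgcagctggaggggga
unit 26, score 148, chr14:105407950-105407979: catgctggatGGTGCGcggcttgaggggga
unit 3, no summit, chr14:105419335-105419364: aaagctggatGGTGCGcggctggaggggga
unit 10, no summit, chr14:105415870-105415899: taagctggatGGTGCGcggctggagggaga
unit 25, no summit, chr14:105408445-105408474: caagctggacagtacgcggctggaggggga
The word was present in 5 of the 7 units with a summit there, and it was also present in units without one. Among the 24 close units, 10 had the word within 25 nt of the position and 4 of these had a summit, while 2 of the 14 without the word had a summit. Unit 14 had the word and is counted without a summit. The peak of score 14 at chr14:105413855-105413936 covers its position, with a summit further than 25 nt away. The coding exon of AHNAK2 held the word 12 times and that of AHNAK once. Outside both genes, 5.60% of coding exon peaks of the miR-342-3p list had the word within 25 nt of the summit, against 0.748% of those of the miR-342-5p list and 0.267% on the opposite strand of the miR-342-3p peaks.

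Exact copies of the sequence were found at units without a summit. Of the 18 close units with no summit at the position, 5 had an exact 50-nt copy elsewhere in the exon, and of the 6 close units with a summit none did. Unit 14 is among those 5, but its position lies inside the miR-342-3p peak at chr14:105413855-105413936. The summit of that peak was more than 25 nt away, so this contrast depends on the 25-nt limit. Near-copies with at most 2 mismatches were present for 8 of the 18 and 5 of the 6. Whether reads from exact copies were removed by the quality filter was not tested.

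Other genes with a long coding exon had at most 1 miR-342-3p peak in it. The 5 other protein-coding genes with the longest coding exons, MUC16, CCDC168, TTN, C2orf16 and MUC12, had no peak of either list. Over the 83 genes with a coding exon of at least 5000 nt, a length set after values were seen, 9 of the other 81 had a miR-342-3p peak in it and none had more than 1. Over all protein-coding genes, 11.8% had a miR-342-3p peak anywhere in the gene. For miR-342-5p, 14 of the other 81 had a peak there, with up to 27 in SPEN. AHNAK had 0.866 miR-342-3p peaks per kb of coding exon and AHNAK2 0.538, against a median of 0.163 over the other genes with any. Each of those other genes had 1 peak, so their median follows from exon length alone. AHNAK and AHNAK2 were chosen by their number of peaks, so the contrast is a description and carries no test. For miR-342-5p the values were 0.346 and 0.120, below the median of 0.823 over the other genes with any. The amount of each mRNA in these cells is not in the lists, so its part in these numbers was not tested.

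**Figure D4:**
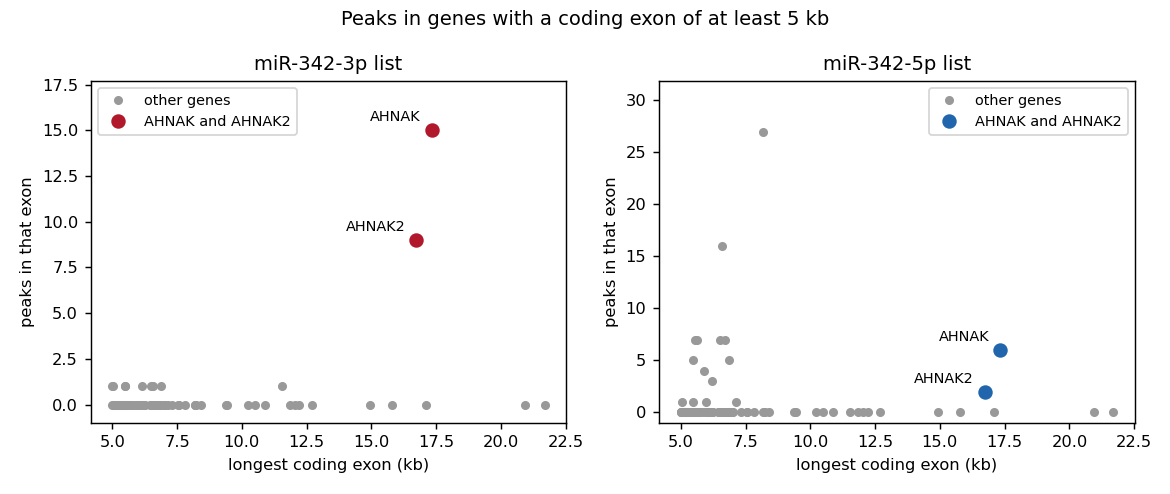
Number of peaks in the longest coding exon (vertical) against the length of that exon in kb (horizontal) for the 83 protein-coding genes with a coding exon of at least 5 kb, in the miR-342-3p list (left) and the miR-342-5p list (right). Only AHNAK, with 15, and AHNAK2, with 9, have more than 1 miR-342-3p peak, whereas other genes reach 27 in the miR-342-5p list. AHNAK and AHNAK2 were chosen by their number of peaks.

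Some genes whose proteins are known to bind AHNAK or are related to it also had peaks. Of 10 such genes, 3 had a miR-342-3p peak and 3 a miR-342-5p peak, beside 11.8% of all protein-coding genes for each list, and with 10 genes no more is read from this. ANXA2, which encodes annexin A2, had miR-342-5p peaks of score 195 and 84 in coding exons and no miR-342-3p peak. MYOF, which encodes the membrane repair protein myoferlin, had 4 miR-342-3p peaks of score 23 to 63 and 1 miR-342-5p peak of score 55, all in coding exons. PRKCA, a protein kinase C gene, had 2 miR-342-3p peaks of score 37 and, in its 3′UTR, 3 miR-342-5p peaks of score 5 to 15, each with a miR-342-5p site. PRX, which encodes periaxin, had 1 miR-342-3p peak of score 11. S100A10, DYSF, CACNB2, PLCG1, S100B and FGF1 had none. No miR-342-3p peak of these genes had a miR-342-3p 7mer or 8mer site.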

How the data were processed

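Per the labels and the study's methods, reads were mapped to hg19 with TopHat2 2.0.13 and filtered by alignment quality with Samtools, and peaks were called with MACS2 2.1.1.20160309 of either miR-342 mimic against the negative control. The submitters' processing notes also name cutadapt 1.13 and UMI-tools. The deposited score of each peak, described by the authors as reads above background, was used as given, and how libraries were scaled is not given in the sources used here. Peak names show that strands were called separately and replicates merged.

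Coordinates are 1-based on hg19. Peak ends on the chromosomes of both genes lay within their GRCh37 lengths, and peaks were placed by midpoint with GENCODE release 44 mapped to GRCh37, a 3′UTR being taken before a coding exon. The summit column was read as counting from 0, which leaves 1 nt of doubt. Repeat units came from translating the exon, the shift of 20 to 399 residues with the highest identity, and 3 rounds of profile search in pyhmmer 0.12.3 (E-value 0.001). Duplex energies came from ViennaRNA 2.7.2. Fisher's exact test used scipy 1.17.1, with Python 3.11.15, numpy 2.4.6, pandas 2.3.3, Biopython 1.88 and matplotlib 3.10.9. The search for sites, repeats and copies was tested on simulated data. Both mature miRNAs matched by name in the RefSeq table.

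The members and lists were chosen with earlier results of these data known. Named genes are AHNAK and AHNAK2 with every peak, 10 partners or relatives, and the 5 other genes with the longest coding exon. SPEN was named after its values were seen. The G:U, contiguous complement, bases 15 to 20 and duplex measures, the copies, the run gap, the unit window and the 5000-nt limit were added after values were seen. Alternatives were score limits, gene assignment, repeat definition, window and site type.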

Additional observations from a re-analysis of the deposited data

How the results depend on the processing

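Of 82 recomputed values, 72 kept their call or stayed within 1.5 times the reported number, 9 counts moved further and 1 test changed its call. Peaks of score above 50 alone left 10 miR-342-3p peaks in AHNAK (4 in close units), 4 in AHNAK2 (3 in close units) and 2 miR-342-5p peaks in AHNAK2. With 8mer sites alone, 1 miR-342-5p peak of AHNAK2 had a site and 1 site of its long exon had a peak. With 6mers added, 2 miR-342-5p peaks of AHNAK had a site and 2 sites of its long exon had a peak, and the difference between lists was 40 percentage points instead of 20 (p = 0.00401, two-sided Fisher's exact test over peaks that are not independent). The whole lists differ in the same direction, with such a site at 49.2% of miR-342-5p and 23.8% of miR-342-3p peaks. The 0 of 25 miR-342-3p peaks with a site stayed at 0 under each site, window and score alternative. No paired analysis was possible because the lists merge the replicates and no column carries one. Depth is unknown, peaks of 1 gene are not independent, and how reads shared by near-identical units were counted was not tested.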
